A study of Mus musculus with 12 samples.

Results

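AMPA and NMDA receptors are the glutamate-gated channels that carry most fast excitatory transmission in the brain. Their 10 subunit genes described here were taken by symbol: the 4 AMPA receptor genes Gria1, Gria2, Gria3 and Gria4, and the 6 NMDA receptor genes Grin1, Grin2a, Grin2b, Grin2c, Grin2d and Grin3a. All 10 were found among the 46517 genes counted. They were followed in the ventromedial nucleus (VMN) of the mouse hypothalamus with translating ribosome affinity purification (TRAP). In that method the ribosomes of SF1 cells, a neuron class of this nucleus, are tagged with a GFP-L10 ribosomal fusion protein and pulled down with the RNA bound to them.

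The study set a virus (AAV) for a dominant-negative form of the energy-sensing kinase AMPK against no such virus, and pulled-down RNA against whole tissue. DN output was pulled-down RNA from animals given the AMPK mutant virus and the GFP-L10 virus. CTRL output was pulled-down RNA from animals given GFP-L10 and, by their sample characteristics, no AMPK mutant. DN input and CTRL input were RNA of the tissue from which the pull-downs were made, so every animal, control or not, carried the GFP-L10 virus. All animals ate regular chow and were fasted overnight, and their age, sex and strain are not given in the labels, nor is the promoter that restricted GFP-L10 to SF1 cells. For CTRL samples the protocol field also mentions the AMPK mutant virus, while their characteristics deny it, and the characteristics were followed here. There were 3 pools per virus group and 6 animals in each pool, and each pool gave an output and an input library, 12 libraries in all. The series text calls the dissected tissue hypothalamus and the sample labels call it VMN.

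A library held 34635492 to 55464854 reads counted in genes. Mitochondrially encoded RNA made up 17.9% to 26.1% of these in outputs and 74.9% to 79.7% in inputs, so nuclear genes were covered less deeply in inputs. Levels are therefore given as normalized CPM, read counts relative to library size corrected by edgeR's TMM factors, and subunits are compared with each other only per kilobase of exon. VMN neuron RNA was enriched in the pull-down. Nr5a1, the gene that encodes SF1, had 10.9, 31.1 and 25.1 normalized CPM in DN outputs, against 6.49, 6.88 and 4.72 in DN inputs. In CTRL it had 36.2, 19.2 and 12.5 in outputs, against 1.95, 2.97 and 1.29 in inputs. Outputs lay above inputs in both, and the log2 fold change was 1.88 ± 0.55 in DN (SE, edgeR adjusted p = 0.0946), past the threshold of 0.05 in CTRL only, at 3.44 ± 0.55 (SE, edgeR adjusted p = 0.00751). The difference between these folds did not pass (edgeR interaction of Nr5a1, adjusted p = 0.799). The summed normalized CPM of 10 VMN neuron markers was 1815 to 2446 in DN outputs and 1510 to 1743 in CTRL outputs, against 553 to 756 in DN inputs and 534 to 605 in CTRL inputs. That of 12 astrocyte markers was 1231 to 1361 in DN outputs and 1785 to 2031 in CTRL outputs, against 3478 to 3836 in DN inputs and 3392 to 4044 in CTRL inputs. When outputs were tested against inputs, 8 of 10 VMN neuron markers rose in DN and in CTRL. Of the 12 astrocyte markers 8 fell in DN and 9 in CTRL. Over all genes tested 1.84% rose in DN and 1.78% in CTRL, out of 3.38% and 3.2% called in either direction. These marker lists were chosen with earlier results of these data known. Glial RNA was lower in outputs but not absent, and of all markers followed only Aif1 of microglia had 0 counts throughout a group, the DN outputs. In bulk RNA of this kind, fewer cells of a type and less RNA per cell cannot be told apart.

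An AMPA receptor is a tetramer of GluA subunits, encoded by the Gria genes, and its make-up sets how fast it closes and whether calcium passes. An NMDA receptor pairs the obligatory GluN1 subunit, encoded by Grin1, with GluN2 subunits, encoded by Grin2a to Grin2d, or with GluN3 subunits, encoded by Grin3a and Grin3b. Hypothalamic glutamate receptors are known to take part in the control of feeding and energy balance, and fasting is known to act on synapses of hypothalamic feeding neurons.

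The subunits differ at 1 residue of the pore that helps to set calcium permeability and, in NMDA receptors, block by magnesium. The 33 bases around the codon of that residue are shown for 6 of the genes, 5′ to 3′ on the coding strand, with the codon in capitals, because they show where in the genome the subunits are alike and where they part. They were read from GENCODE release 21 transcripts on GRCm38. The codon was placed by its distance from a motif that the encoded proteins share, 30 codons before it in AMPA and 31 codons before it in NMDA receptor subunits.
Gria1, chr11:57243079-57243111, plus strand: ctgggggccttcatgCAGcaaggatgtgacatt
Gria2, chr3:80706896-80706928, minus strand: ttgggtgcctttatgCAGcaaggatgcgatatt
Gria3, chrX:41610250-41610282, plus strand: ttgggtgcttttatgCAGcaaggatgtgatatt
Gria4, chr9:4464122-4464154, minus strand: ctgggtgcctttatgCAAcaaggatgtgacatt
Grin1, chr2:25297371-25297403, minus strand: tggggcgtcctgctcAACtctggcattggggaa
Grin3a, chr4:49770569-49770601, minus strand: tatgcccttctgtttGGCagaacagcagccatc

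All 4 AMPA receptor genes encode glutamine here in the genome. In Gria2 RNA this codon is normally edited by the adenosine deaminase ADAR2 so that arginine is built in, which makes receptors that hold GluA2 nearly impermeable to calcium. The counts do not measure editing. At this codon Grin1 encodes asparagine and Grin3a encodes glycine.

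Per kilobase, AMPA receptor RNA in the pull-down was led by Gria3, and NMDA receptor RNA by Grin2b. By group means both also led in the tissue, and the pull-down was not free of RNA of other cells. Gria3 encodes GluA3, and in outputs it made up a larger share of AMPA receptor RNA than in the tissue. Its share of the 4 Gria genes was 40.4% ± 3.84 in DN outputs and 39.3% ± 1.16 in CTRL outputs, against 26.4% ± 6.27 in DN inputs and 29.7% ± 4.49 in CTRL inputs (SD, n = 3 each). In each of the 6 pools the Gria3 share was higher in the output than in its input, by 4.45 to 19.7 percentage points. Within the pools the Gria4 share moved the other way, being lower in all 6 outputs, at differences of -0.08 to -11.5 percentage points. Shares add up to a whole, so a share can fall because another rises. In normalized CPM Gria4 was higher in the output in 1 of 3 DN pools and 1 of 3 CTRL pools.

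Gria2, the subunit gene whose edited RNA blocks calcium entry, took 25.8% ± 2.72 in DN outputs and 25.1% ± 1.34 in CTRL outputs, and 25.3% ± 5.42 in DN inputs and 23.7% ± 2.50 in CTRL inputs (SD, n = 3 each). Its share was therefore similar in both fractions, within the spread of the pools. Gria1, which encodes GluA1, took 19.7% ± 4.51 in DN outputs and 20.2% ± 4.42 in CTRL outputs, and 26.0% ± 3.21 in DN inputs and 23.8% ± 5.81 in CTRL inputs (SD, n = 3 each). Gria4, which encodes GluA4, took 14.0% ± 3.32 in DN outputs and 15.4% ± 3.70 in CTRL outputs, and 22.3% ± 0.76 in DN inputs and 22.8% ± 5.21 in CTRL inputs (SD, n = 3 each).

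Grin2b, which encodes GluN2B, a subunit of slow closing receptors, took most of the NMDA receptor RNA. Its share was 69.4% ± 1.67 in DN outputs and 65.1% ± 0.59 in CTRL outputs, and 63.4% ± 2.97 in DN inputs and 63.1% ± 2.32 in CTRL inputs (SD, n = 3 each). All 6 pools had a higher Grin2b share in the output than in the input, by 0.89 to 10.3 percentage points. The spread of DN and CTRL outputs did not overlap for this share, and that difference was not tested. In normalized CPM the Grin2b outputs of DN and CTRL did overlap, where 11% of all genes tested did not. Grin3a, whose GluN3A subunit lowers calcium flux and magnesium block, came next in the tissue of CTRL animals. It took 9.58% ± 3.21 in DN outputs and 12.1% ± 0.78 in CTRL outputs, against 11.3% ± 2.88 in DN inputs and 17.7% ± 2.13 in CTRL inputs (SD, n = 3 each). Its share was lower in the output in 5 of 6 pools, but its normalized CPM was not. By that measure Grin3a was higher in the output in 3 of 3 DN pools and 2 of 3 CTRL pools. The mean log2 ratio, on normalized CPM plus 1, was 0.29 in DN and 0.02 in CTRL.

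The other NMDA receptor genes each had a mean share far under that of Grin2b. Grin2a, which encodes the faster closing GluN2A, took 10.5% of NMDA receptor RNA in DN outputs, 11.6% in CTRL outputs, 10.5% in DN inputs and 8.44% in CTRL inputs, close to Grin3a in both output groups. Grin2d, which encodes GluN2D, took 5.95% in DN outputs, 6.68% in CTRL outputs, 9.47% in DN inputs and 5.52% in CTRL inputs. Grin1 came to 4.19% to 4.58% in the 4 groups although its protein is needed in every NMDA receptor. All RNA was linearly amplified, and whether counts followed gene length in these libraries was not tested. Grin2c was nearly absent from outputs.

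**Figure D1:**
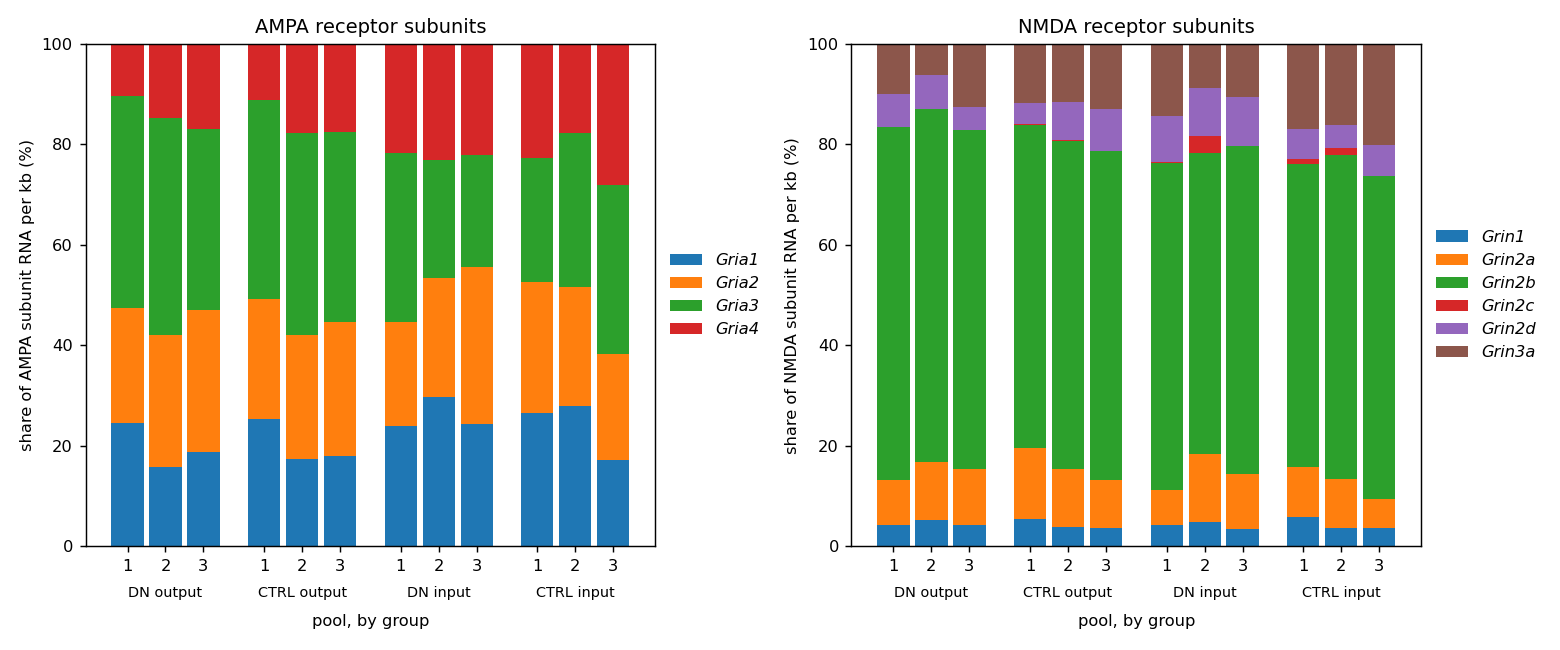
Share (%) of each subunit in the summed RNA of its receptor family, from normalized CPM per kilobase of exon, with 1 stacked bar for each of the 12 libraries. Gria3 takes 36.0% to 43.1% of AMPA receptor RNA in DN outputs and 38.0% to 40.2% in CTRL outputs, and Grin2b takes 60.0% to 70.3% of NMDA receptor RNA across the 12 libraries.

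These shares depend on the length given to each gene. They used all annotated exons of a gene merged together, and with the longest coding transcript instead 21 of the 40 group shares moved by more than 1 SD. Gria3 then stood at 50.1% in DN outputs and 49.0% in CTRL outputs against 35.2% in DN inputs and 39.0% in CTRL inputs. Grin2b stood at 60.8% in DN outputs and 56.3% in CTRL outputs against 55.0% in DN inputs and 53.4% in CTRL inputs. Grin1, with exons of 9700 bases merged but 4276 bases in its longest coding transcript, stood at 7.98% to 8.82%. By group means, Gria3 led AMPA receptor RNA and Grin2b led NMDA receptor RNA in all 4 groups with either length. With either length the Gria3 and Grin2b shares were higher, and the Gria4 share lower, in the output of all 6 pools.

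Across both families, mean levels per kilobase in outputs ran from Gria3 through Grin2b, Gria2 and Gria1 to Gria4, all above every Grin gene other than Grin2b. In DN outputs Gria3 averaged 45.4 and Grin2b 40.1 normalized CPM per kilobase, and their libraries overlapped. In CTRL outputs Gria3 averaged 39.4 and Grin2b 36.7, with no overlap among the 3 libraries. Gria2 lay below Grin2b without overlap in both output groups, at 28.8 in DN outputs and 25.2 in CTRL outputs. Gria2, Gria1 and Gria4 overlapped as neighbours in that order. In inputs Grin2b came first, at 25.1 in DN and 24.2 in CTRL, but the 5 leading genes each overlapped with the next. With the longest coding transcript as the length, Gria3 came first in all 4 groups, and Gria2 passed Grin2b in DN outputs and in both input groups.

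**Figure D2:**
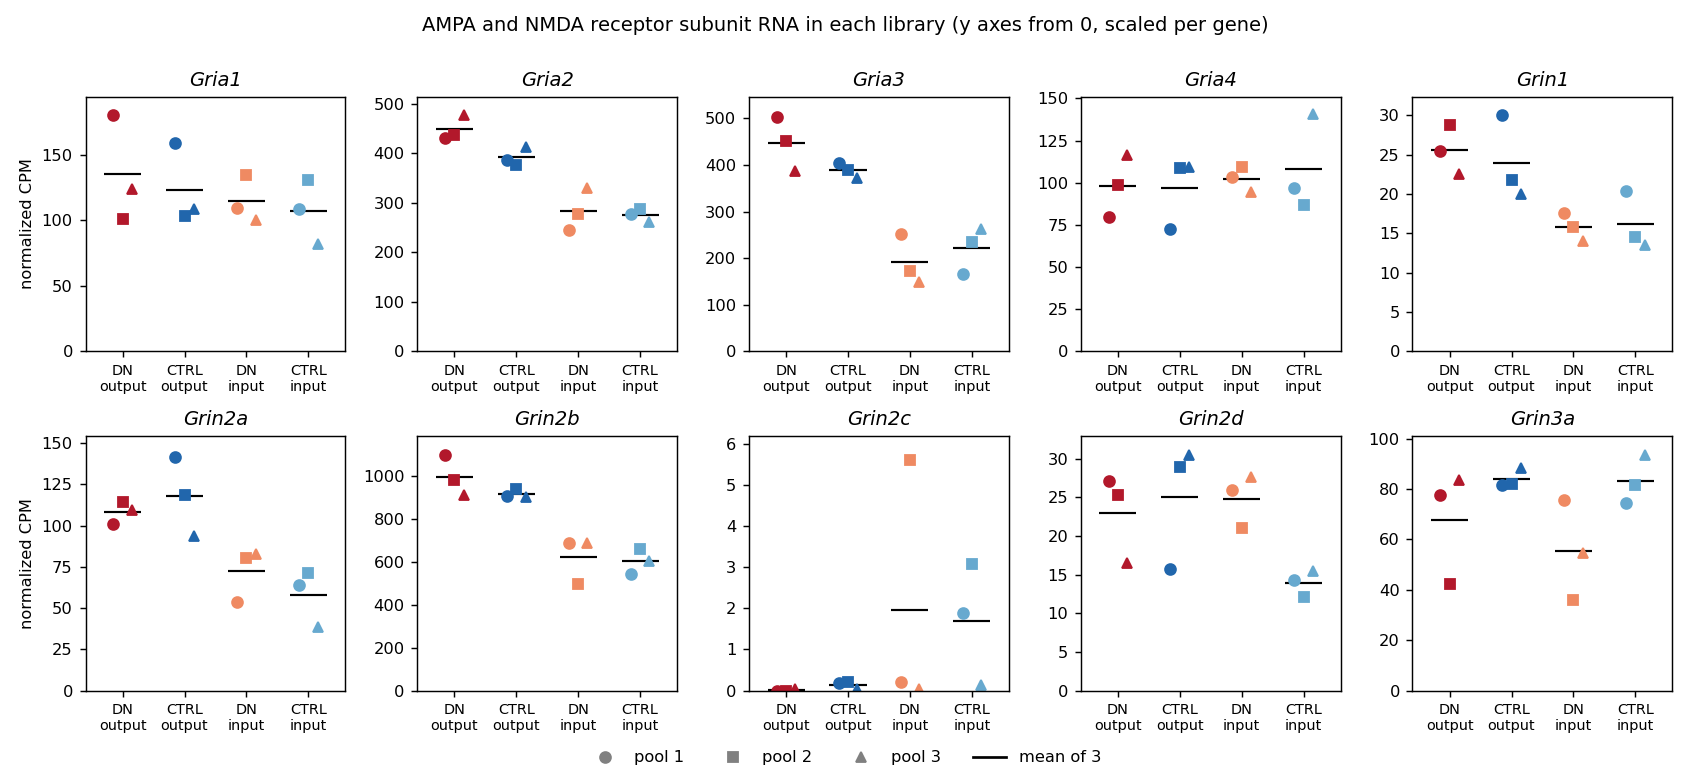
Normalized CPM of each of the 10 subunit genes in the 12 libraries, with symbols for pools and a line at the mean of 3, on axes that start at 0 and are scaled per gene. All 6 output libraries lie above all 6 inputs for Gria2, Gria3, Grin2a and Grin2b, with Gria2 at 377 to 478 in outputs against 245 to 330 in inputs.

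Pulled-down RNA was then set against tissue for each gene, within each virus group, which asks whose RNA SF1 cell ribosomes hold in excess of the surrounding VMN. Of the 9 subunit genes tested in DN animals 3 rose, Gria2, Gria3 and Grin2b, and none fell. Of the 10 tested in CTRL animals 2 rose, Gria3 and Grin2b, and none fell. Tests were edgeR's quasi-likelihood test with Benjamini-Hochberg adjustment over all genes, at an adjusted p of 0.05. By the same rule 1.84% of the 13041 genes tested in DN rose, out of 3.38% called in either direction, and 1.78% of the 13456 tested in CTRL, out of 3.2%. The median log2 fold change of the subunit genes was 0.57 in DN, against 0.00 over all genes tested there, and 0.53 in CTRL, against 0.02. The 10 pan-neuronal markers had medians of 0.43 in DN and 0.36 in CTRL, with 9 of 10 above 0 in each. Of them 3 rose past the threshold in DN (Nefl, Snap25 and Syn1) and 4 in CTRL (these and Rbfox3). Map2 went the other way, lower in the output of every pool. VMN neuron markers, at 1.65 in DN and 1.55 in CTRL, were far above both lists. The 10 GABA neuron markers went the other way, all below 0, with medians of -2.08 in DN and -1.84 in CTRL. Of these, 3 fell past the threshold in DN and 2 in CTRL. The pan-neuronal and VMN neuron lists were therefore mostly higher in outputs, and the GABA neuron list was lower. How far the subunit values follow these shifts between cell types in the pull-down was not tested.

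Gria3 had the largest excess in the pull-down among the subunits called. Its normalized CPM was 503, 451 and 387 in DN outputs, against 251, 173 and 149 in DN inputs. In CTRL it was 404, 388 and 373 in outputs, against 166, 236 and 262 in inputs. Every output was above every input. The log2 fold change was 1.22 ± 0.20 in DN (SE, edgeR adjusted p = 0.00551) and 0.80 ± 0.18 in CTRL (SE, edgeR adjusted p = 0.035). Without single pools the adjusted p in DN was 0.00808 without pool 1, 0.0895 without pool 2 and 0.0572 without pool 3. In CTRL it was 0.212 without pool 1, 0.224 without pool 2 and 0.0463 without pool 3, with log2 fold changes of 0.60 to 0.98.

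Grin2b had the highest counts of the 10 genes. Its normalized CPM was 1098, 977 and 911 in DN outputs, against 688, 497 and 684 in DN inputs. In CTRL it was 903, 935 and 899 in outputs, against 540, 658 and 603 in inputs. The groups did not overlap, and the excess was smaller than that of Gria3, at a log2 fold change of 0.66 ± 0.14 in DN (SE, edgeR adjusted p = 0.0277) and 0.59 ± 0.12 in CTRL (SE, edgeR adjusted p = 0.0251). Each call ended when any 1 pool was left out, with an edgeR adjusted p of 0.108 to 0.172 in DN and 0.0962 to 0.193 in CTRL. An antisense gene within Grin2b, Gm26653, reached at most 189 counts, and since the strand setting of the counting is not given, reads of both cannot be fully told apart.

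Gria2 counts lay at 431, 436 and 478 normalized CPM in DN outputs, against 245, 277 and 330 in DN inputs. In CTRL they lay at 387, 377 and 412 in outputs, against 277, 287 and 261 in inputs. In both virus groups outputs lay above inputs without overlap, but only the DN comparison passed the threshold. The log2 fold change was 0.65 ± 0.15 in DN (SE, edgeR adjusted p = 0.0406) and 0.50 ± 0.13 in CTRL (SE, edgeR adjusted p = 0.0616). The DN call ended without any 1 of the pools, at an adjusted p of 0.146 to 0.2, and with DESeq2's size factors in edgeR, at 0.055. In CTRL the gene passed with DESeq2, at an adjusted p of 0.0117, and with mitochondrial genes left out of edgeR's fit, at 0.0473.

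Grin2a RNA was at 101, 114 and 109 normalized CPM in DN outputs, against 53.8, 80.6 and 82.9 in DN inputs. In CTRL it was at 142, 118 and 93.5 in outputs, against 64.2, 71.5 and 38.3 in inputs. Outputs were above inputs without overlap, yet neither comparison passed, at a log2 fold change of 0.57 ± 0.23 in DN (SE, edgeR adjusted p = 0.246) and 1.02 ± 0.25 in CTRL (SE, edgeR adjusted p = 0.0529). With the pool as a block, since output and input of a pool come from the same animals, the CTRL value was 1.04 with an edgeR adjusted p of 0.0133. The CTRL difference also passed with DESeq2, at an adjusted p of 0.00255. In edgeR it passed without the filter on low counts, at 0.00179, and in 1 fit of all 12 libraries, at 0.0389. These were 4 of 9 alternatives. Without any 1 of the pools it did not pass, at an edgeR adjusted p of 0.0699 to 0.293. In DN 0 of 9 alternatives passed.

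Grin1 was counted far less than Grin2b. It had 25.4, 28.8 and 22.5 normalized CPM in DN outputs, against 17.6, 15.8 and 14.0 in DN inputs. In CTRL it had 30.0, 21.7 and 20.0 in outputs, against 20.3, 14.6 and 13.5 in inputs. Within the pools its log2 ratio of output to input, on normalized CPM plus 1, was 0.50, 0.83 and 0.65 in DN and 0.54, 0.55 and 0.53 in CTRL, so it was positive in all 6. The fit gave 0.68 ± 0.40 in DN (SE, edgeR adjusted p = 0.454) and 0.56 ± 0.34 in CTRL (SE, edgeR adjusted p = 0.459).

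Gria1, Gria4 and Grin3a showed no difference past the threshold. Gria1 had 180, 101 and 124 normalized CPM in DN outputs and 159, 103 and 108 in CTRL outputs, against 109, 134 and 99.9 in DN inputs and 109, 131 and 82.1 in CTRL inputs. In both virus groups pool 2 was lower in the output than in the input while pools 1 and 3 were higher. Gria4 had 79.8, 98.4 and 117 in DN outputs and 72.7, 109 and 109 in CTRL outputs, against 103, 109 and 94.3 in DN inputs and 96.8, 86.9 and 140.5 in CTRL inputs. The log2 fold change of Gria4 was -0.07 ± 0.21 in DN (SE, edgeR adjusted p = 0.929) and -0.17 ± 0.24 in CTRL (SE, edgeR adjusted p = 0.791). Grin3a had 77.6, 42.3 and 83.6 in DN outputs and 81.7, 81.9 and 88.4 in CTRL outputs, against 75.5, 36.1 and 54.4 in DN inputs and 74.5, 81.5 and 93.4 in CTRL inputs. CTRL outputs and inputs of Grin3a overlapped fully, at a log2 fold change of 0.00 ± 0.18 with a 95% interval of -0.39 to 0.39.

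Grin2d was low throughout, and Grin2c was the rarest of the 10. Grin2d had 27.2, 25.3 and 16.5 normalized CPM in DN outputs, against 25.9, 21.0 and 27.6 in DN inputs. In CTRL it had 15.8, 29.0 and 30.5 in outputs, against 14.3, 12.2 and 15.4 in inputs, which do not overlap. Its log2 fold change was -0.12 ± 0.39 in DN (SE, edgeR adjusted p = 0.924) and 0.83 ± 0.36 in CTRL (SE, edgeR adjusted p = 0.273). Grin2c, which encodes GluN2C, a subunit best known from cerebellar granule cells and also reported in astrocytes, had 0, 0 and 2 counts in DN outputs and 13, 13 and 2 in CTRL outputs. Its counts in inputs were 6, 139 and 1 in DN and 54, 86 and 3 in CTRL. A count of 0 in a library of the DN outputs allows up to 3 counts, or 0.0739 CPM before TMM scaling, by counting error only. Its fit in CTRL gave a log2 fold change of -3.57 ± 1.45 (SE, edgeR adjusted p = 0.244), and the gene was too rare to test in DN. In DN inputs pool 2 held most of its reads, and in CTRL inputs pools 1 and 2 together did.

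Outputs and inputs did not overlap for 5 of 9 genes in DN, namely Gria2, Gria3, Grin1, Grin2a and Grin2b, where 22.5% of all genes tested did not overlap. In CTRL they did not overlap for 5 of 10, namely Gria2, Gria3, Grin2a, Grin2b and Grin2d, where 23.1% of all genes tested did not. In each of these the outputs were the higher.

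**Figure D3:**
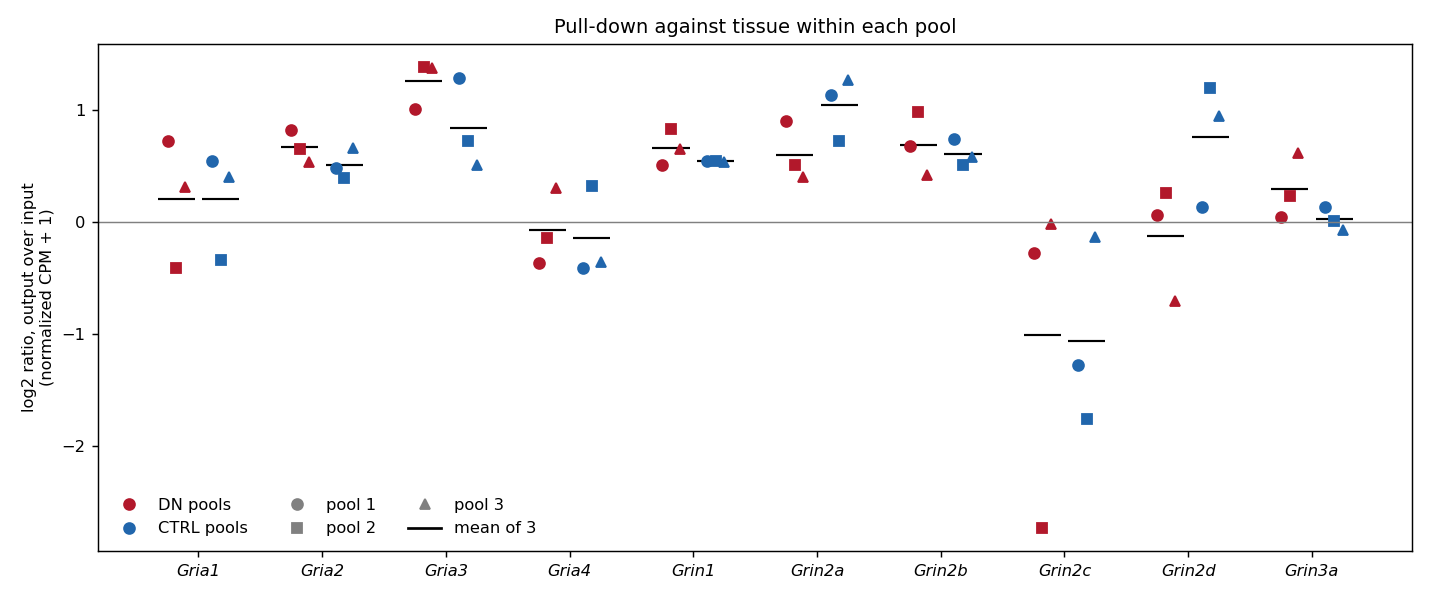
Log2 ratio of output to input within each pool (normalized CPM plus 1) for the 10 subunit genes, DN pools left of CTRL pools, with a line at the mean of 3. All 6 pools lie above 0 for Gria2, Gria3, Grin1, Grin2a and Grin2b, and Gria3 averages 1.25 in DN pools and 0.84 in CTRL pools.

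Ratios of 2 subunits within a library do not depend on scaling between libraries, and 4 of them were tested over the 6 pools with an exact sign-flip permutation test, two-sided, whose smallest possible p is 0.03125. The Grin3a to Grin1 ratio was lower in the output than in its input in all 6 pools, by a mean log2 difference of -0.47 ± 0.22 (SD, n = 6 pools, exact p = 0.03125, 0.0833 adjusted over the 4 ratios). The Gria1 to Gria2 ratio was lower in the output in 5 of 6 pools, at -0.39 ± 0.43 (SD, exact p = 0.0625, 0.0833 adjusted). The Gria3 to Gria2 ratio was higher in the output in 5 of 6 pools, at 0.46 ± 0.40 (SD, exact p = 0.0625, 0.0833 adjusted). The Grin2b to Grin2a ratio, a measure often read as the balance of slow and fast NMDA receptors, was -0.18 ± 0.40 and higher in 2 of 6 pools (SD, exact p = 0.375). None passed after adjustment. With 4 ratios adjusted together, a single ratio at the smallest possible p could not have passed. The adjusted values therefore cannot decide on the Grin3a to Grin1 ratio, which was at that p.

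The Grin2b to Grin2a ratio itself was high everywhere. On the log2 scale of counts it was 3.20 ± 0.21 in DN outputs and 2.97 ± 0.30 in CTRL outputs, and 3.12 ± 0.53 in DN inputs and 3.42 ± 0.49 in CTRL inputs (SD, n = 3 each). Gria3 and Gria2 were close to equal in counts in outputs, at -0.01 ± 0.27 in DN and -0.01 ± 0.11 in CTRL, against -0.60 ± 0.60 in DN inputs and -0.34 ± 0.38 in CTRL inputs (SD, n = 3 each). The Gria1 to Gria2 ratio was -1.77 ± 0.45 in DN outputs and -1.69 ± 0.36 in CTRL outputs, against -1.31 ± 0.36 in DN inputs and -1.39 ± 0.27 in CTRL inputs (SD, n = 3 each). These are ratios of counts, uncorrected for gene length, and serve to compare libraries, not genes.

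DN animals were compared with CTRL animals within outputs, which asks whether AMPK mutant virus changed subunit RNA on SF1 cell ribosomes. No subunit gene was called among the 9 tested, and by edgeR's quasi-likelihood test 0% of 13333 genes were. At an unadjusted p under 0.05 there were 721 genes, 5.41% of those tested and none of them a subunit gene, and DESeq2 called 58 genes, again no subunit gene. The intervals bound the change best for the genes with most counts. For Grin2b the log2 fold change was 0.12 with a 95% interval of -0.13 to 0.37. Gria3 was at 0.20 (-0.11 to 0.51) and Gria2 at 0.19 (-0.09 to 0.47). Grin2d, with few counts, was at -0.13 (-0.97 to 0.72), and Grin3a at -0.31 (-0.88 to 0.26), with DN pool 2 at 42.3 normalized CPM, under the other 5 outputs. Gria2 was the 1 gene of 9 whose DN outputs, at 431 to 478, all lay above the CTRL outputs, at 377 to 412, where 11% of all genes tested did not overlap.

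Summed over the 4 Gria genes, normalized CPM per kilobase was 121, 106 and 109 in DN outputs against 104, 97.9 and 99.6 in CTRL outputs. For the 6 Grin genes the sum was 62.8, 56.0 and 54.4 in DN outputs against 56.4, 57.6 and 55.3 in CTRL outputs. The AMPA sums did not overlap and the NMDA sums did, and with 3 pools against 3 no exact test can go below 0.1. The summed pan-neuronal markers were 8216 to 9173 in DN outputs against 7272 to 7716 in CTRL outputs, and the summed astrocyte markers 1231 to 1361 in DN outputs against 1785 to 2031 in CTRL outputs, so both lists were apart in the same libraries. Their part in the AMPA sums was not tested.

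Within inputs no subunit gene was called among the 10 tested, and 0.00756% of 13221 genes were, which is 1 gene. At an unadjusted p under 0.05 there were 589 genes, 4.46% of those tested, and Grin2d was the 1 subunit gene among them. Its DN inputs, at 25.9, 21.0 and 27.6 normalized CPM, all lay above the CTRL inputs, at 14.3, 12.2 and 15.4, where 10.5% of all genes tested did not overlap. The log2 fold change was 0.83 ± 0.35 (SE, unadjusted p = 0.0343, edgeR adjusted p = 0.997) with a 95% interval of 0.07 to 1.59. In the same libraries the summed pan-neuronal markers were 5556 to 5914 in DN inputs against 4738 to 5256 in CTRL inputs, and the mitochondrial share was 77.6% to 79.7% in DN inputs against 74.9% to 77.0% in CTRL inputs, neither overlapping. Nr5a1 was at 4.72 to 6.88 normalized CPM in DN inputs against 1.29 to 2.97 in CTRL inputs, also without overlap. The summed VMN neuron markers did overlap, at 553 to 756 in DN inputs and 534 to 605 in CTRL inputs. The part of these differences in that of Grin2d was not tested. Grin3a was at -0.59 (-1.17 to 0.00, unadjusted p = 0.0507, edgeR adjusted p = 0.997), and its libraries overlapped at the top of the DN range. The other genes, apart from the rare Grin2c, lay between -0.21 for Gria3 and 0.32 for Grin2a.

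**Figure D4:**
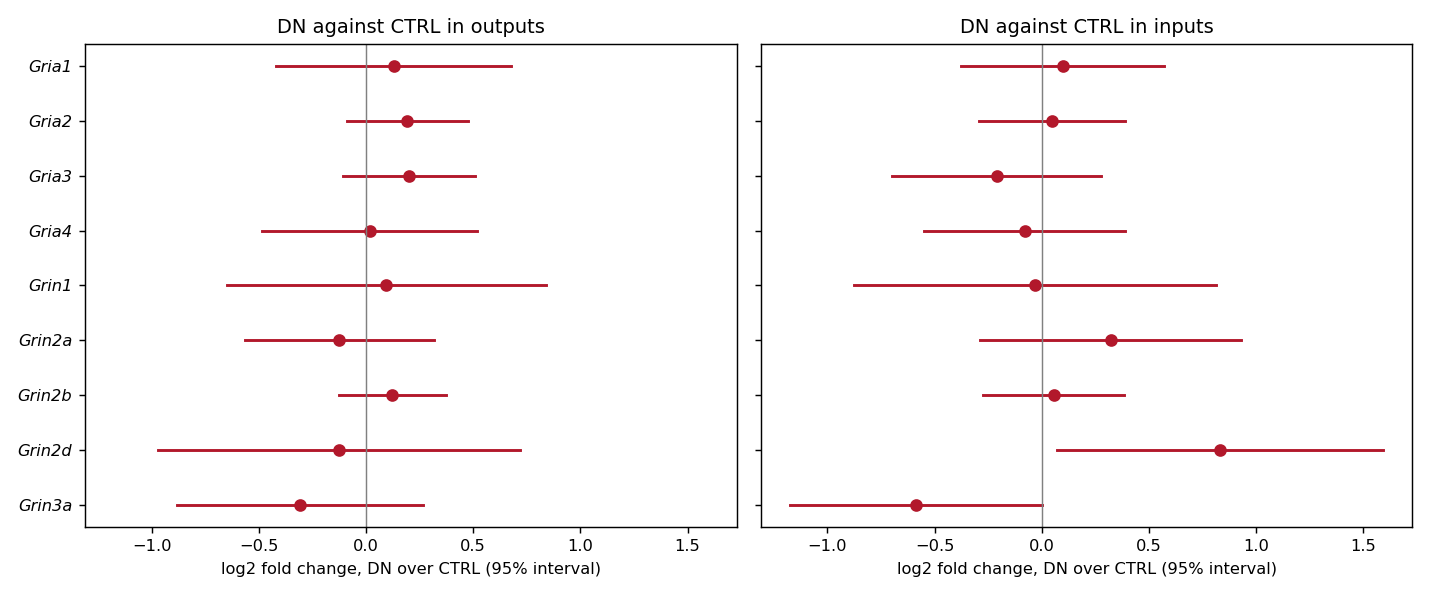
Log2 fold change of DN over CTRL (edgeR, 3 pools each) with 95% intervals for 9 subunit genes in outputs, left, and in inputs, right. Only the interval of Grin2d in inputs, 0.07 to 1.59, leaves out 0, and its adjusted p over all genes is 0.997.

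Whether the excess in the pull-down itself differed between DN and CTRL was tested as an interaction in 1 fit of all 12 libraries. No subunit gene was called among the 10 tested, and 0% of 15011 genes were. At an unadjusted p under 0.05 there were 933 genes, 6.22% of those tested, with no subunit gene, and DESeq2 called 99 genes, with no subunit gene. Gria3, with the larger fold in DN, gave a log2 difference of 0.41 ± 0.28 (SE, edgeR adjusted p = 0.898), and Grin2a, with the larger fold in CTRL, gave -0.44 ± 0.35 (SE, edgeR adjusted p = 0.921). Grin2d gave -0.96 ± 0.50 (SE, unadjusted p = 0.0724, edgeR adjusted p = 0.828). So the 3 calls in DN and the 2 in CTRL were not shown to differ. For the 4 subunit ratios, 3 against 3 pools cannot go below an exact permutation p of 0.1 (two-sided), so no difference between DN and CTRL could have passed the threshold. The largest difference was that of Grin3a to Grin1, at a log2 value of -0.48 in outputs (exact p = 0.4) and -0.63 in inputs (exact p = 0.3), lower in DN.

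Genes that work with these subunits were followed in 4 lists. The 17 AMPA receptor auxiliary and assembly genes included the TARP genes Cacng2, Cacng3, Cacng4, Cacng5, Cacng7 and Cacng8 and the cornichons Cnih2 and Cnih3. Of these 17, 1 rose in DN and none was called in CTRL. That gene was Frrs1l, which helps AMPA receptors assemble, with a log2 fold change of 0.92 ± 0.17 in DN (SE, edgeR adjusted p = 0.0131) and 0.75 ± 0.22 in CTRL (SE, edgeR adjusted p = 0.0947). The median of the list was 0.24 in DN and 0.11 in CTRL, below that of the subunits. Shisa9, an auxiliary subunit, was at 0.11 ± 0.19 in DN and 0.56 ± 0.19 in CTRL (SE, edgeR adjusted p = 0.842 in DN and 0.161 in CTRL), and Cacng7 was at -0.42 ± 0.29 in DN and -0.45 ± 0.24 in CTRL (SE, edgeR adjusted p = 0.551 in DN and 0.396 in CTRL).

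Of 24 tested genes for synaptic scaffolds and anchors 4 rose in DN and 4 in CTRL, the same genes, Nptx1, Nptx2, Nsf and Nlgn1. Nptx1 and Nptx2 encode neuronal pentraxins, secreted proteins that cluster AMPA receptors at synapses. Nptx2 was at 26.9, 37.7 and 30.9 normalized CPM in DN outputs, against 1.75, 8.50 and 2.36 in DN inputs, and at 29.6, 21.3 and 25.1 in CTRL outputs, against 8.45, 3.90 and 2.94 in CTRL inputs. Its log2 fold change was 2.91 ± 0.63 in DN and 2.30 ± 0.46 in CTRL (SE, edgeR adjusted p = 0.0273 in DN and 0.0233 in CTRL). That of Nptx1 was 1.64 ± 0.26 in DN and 1.39 ± 0.23 in CTRL (SE, edgeR adjusted p = 0.00438 in DN and 0.00972 in CTRL). Both folds were above those of every AMPA or NMDA receptor subunit. Nsf, an ATPase of membrane fusion that also binds GluA2, was at 0.61 ± 0.14 in DN and 0.61 ± 0.12 in CTRL (SE, edgeR adjusted p = 0.0324 in DN and 0.0209 in CTRL). Nlgn1, a neuroligin of excitatory synapses named because the count was small, was at 0.88 ± 0.22 in DN and 0.88 ± 0.18 in CTRL (SE, edgeR adjusted p = 0.0468 in DN and 0.0251 in CTRL).

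Of 13 genes for RNA editing, kinases and the coagonist 1 rose in both virus groups, Camk2a, a kinase that phosphorylates GluA1 and binds GluN2B. It was at 733, 679 and 579 normalized CPM in DN outputs, against 267, 292 and 293 in DN inputs, and at 542, 575 and 509 in CTRL outputs, against 305, 251 and 301 in CTRL inputs. The log2 fold change was 1.21 ± 0.14 in DN (SE, edgeR adjusted p = 0.000451) and 0.91 ± 0.14 in CTRL (SE, edgeR adjusted p = 0.00623). Its partner gene Camk2b was at 0.33 ± 0.19 in DN and 0.72 ± 0.20 in CTRL (SE, edgeR adjusted p = 0.462 in DN and 0.0862 in CTRL), and Srr, which makes the coagonist D-serine, at 0.88 ± 0.48 in DN and 0.92 ± 0.32 in CTRL (SE, edgeR adjusted p = 0.415 in DN and 0.165 in CTRL). Adarb1, which encodes the enzyme of the Gria2 codon and was named after its values were seen, was present in all 12 libraries at 18.5 to 57.4 normalized CPM, with 0.01 ± 0.40 in DN and 0.50 ± 0.36 in CTRL (SE, edgeR adjusted p = 0.994 in DN and 0.551 in CTRL).

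Of 9 tested kainate and delta receptor genes and their partners 1 rose in DN and none was called in CTRL. That gene was Neto1, whose protein attaches to kainate and NMDA receptors. Its log2 fold change was 0.96 ± 0.22 in DN (SE, edgeR adjusted p = 0.0384) and 0.99 ± 0.25 in CTRL (SE, edgeR adjusted p = 0.0551). Grik4, a kainate receptor subunit gene, was at 0.63 ± 0.72 in DN and 2.09 ± 0.59 in CTRL (SE, edgeR adjusted p = 0.749 in DN and 0.0852 in CTRL), and Grik3 at -0.34 ± 0.43 in DN and -0.50 ± 0.38 in CTRL (SE, edgeR adjusted p = 0.767 in DN and 0.566 in CTRL). Grin3b, the other GluN3 gene, had 0 counts in all 12 libraries. No gene of these 4 lists fell, and none was called between DN and CTRL in outputs or inputs.

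The genes whose levels ran most like the 2 subunits called in both virus groups were found by Pearson's r over the 12 libraries, on log2 of normalized CPM plus 1, among 7705 genes. For Grin2b they were Dpp10 at 0.98, Gnao1 at 0.98 and Ncam2 at 0.98. For Gria3 they were Fgf12 at 0.95, Gpr149 at 0.95 and Ppp3ca at 0.95. Gpr149 is among the VMN neuron markers above. The 12 libraries share the output and input split, so these are descriptions of that split as much as of the genes.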

How the data were processed

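RNA was measured in 12 libraries, input and output of 3 DN and 3 CTRL pools, grouped by sample titles. The deposited values are whole-number read counts per Ensembl gene, which the authors left without normalization. The submitters' processing notes name GRCm38 as the build, and the tools HTSeq 0.6.1, STAR 2.4.2a and cutadapt 1.3. Per the labels all RNA was linearly amplified with the NuGEN Ovation system. Parameters, strand setting and annotation release of the counting are not given in the sources used. The 5 closing entries without a gene, 16.1% to 26.1% of reads, were left out of totals and tests. GENCODE release 21 gave symbols for 46005 of 46517 identifiers (98.9%), exon lengths and the printed sequences. Some sequences are not reported here.

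Genes were tested with edgeR 4.0.16 in R 4.3.3 (quasi-likelihood, two-sided, TMM, filterByExpr with a minimum count of 10 and total of 15, Benjamini-Hochberg over all genes tested, threshold 0.05). Each comparison was fitted on its own 6 libraries, and the interaction on all 12. Ratios of 2 genes used counts plus 0.5 in exact permutation tests. The fit and the tests were checked on simulated data. Intervals are 95%, and without molecular identifiers limits from counts cover counting error only. Pools are separate animals by the series text.

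The members and gene lists were chosen with earlier results of these data known. Of each pathway list the 3 genes with the smallest p in CTRL output against input were named, and genes most like a member were sought among those averaging at least 5 normalized CPM. Input and output of a number share animals by the series text, and their deviations from group means correlated at r = 0.00, 0.00 and 0.02 in DN pools and 0.10, 0.04 and 0.16 in CTRL pools. A number shared between a DN and a CTRL pool joins unrelated animals. Alternatives were DESeq2 1.42.0, its size factors in edgeR, no filter, no mitochondrial genes, a replicate block, 1 fit of 12 libraries, another pseudocount or gene length, and leaving out each replicate.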

Additional observations from a re-analysis of the deposited data

How the results depend on the processing

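The counts of called subunit genes rested on all 3 pools. Leaving out 1 replicate gave 0 to 1 called genes in DN output against input, in place of 3, and 0 to 1 in CTRL, in place of 2, Gria3 being the gene left where 1 was. Calls over all genes in CTRL dropped too, to 54, 45 and 214 without pools 1, 2 and 3, in place of 431. DESeq2 called 4 in CTRL (Gria2, Gria3, Grin2a and Grin2b, of 1172 genes in all). With the pool as a replicate block 3 were called in DN (Gria2, Gria3 and Grin2b) and 3 in CTRL (Gria3, Grin2a and Grin2b), and apart from Grin2a the paired fit changed no subunit's call. No subunit gene was called between DN and CTRL, or in the interaction, under any alternative run.

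No called fold change turned round. Others did, all near 0 but for Grin2c. Grin3a in CTRL output against input was -0.0157 with DESeq2 and -0.0159 with its size factors, and Grin2c between DN and CTRL inputs was -1.23 with the replicate block. The remaining turns came from leaving out 1 replicate and are given as ranges of log2 fold changes. For output against input these were -0.0624 to 0.533 (Gria1), -0.268 to 0.0762 (Gria4) and -0.301 to 0.147 (Grin2d) in DN, and -0.0203 to 0.484 (Gria1) and -0.051 to 0.0696 (Grin3a) in CTRL. Between DN and CTRL outputs they were -0.130 to 0.351 (Gria1), -0.154 to 0.152 (Gria4), -0.0194 to 0.291 (Grin1), -0.268 to 0.0291 (Grin2a) and -0.373 to 0.0636 (Grin2d). Between inputs they were -0.0632 to 0.260 (Gria1), -0.0788 to 0.140 (Gria2), -0.217 to 0.153 (Gria4), -0.145 to 0.176 (Grin1), -0.0259 to 0.189 (Grin2b) and -3.68 to 0.942 (Grin2c). In the interaction they were -0.258 to 0.341 (Gria1), -0.0964 to 0.325 (Gria4), -0.0522 to 0.205 (Grin2b) and -6.51 to 0.599 (Grin2c). The log2 ratios that turned ranged, DN minus CTRL, from -0.335 to 0.127 (Gria1 to Gria2) and -0.116 to 0.148 (Gria3 to Gria2) in outputs, and from -0.0674 to 0.282 (Gria1 to Gria2) and -0.574 to 0.0194 (Gria3 to Gria2) in inputs. Per-kilobase shares moved with the gene length, as given above.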
